A study of Mus musculus with 15 samples.

Results

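The contractile genes of smooth muscle and myofibroblasts were followed in whole mouse lung through bleomycin injury. The set held 10 of the 33340 genes in the count table, chosen by symbol: Acta2, Tagln, Myh11, Cnn1, Actg2, Des, Lmod1, Mylk, Smtn and Myocd. Lungs came from adult male C57BL/6 mice with no transgene or deletion. Libraries of polyadenylated RNA were made at day 0 (titled ctrl, n = 4) and, after intratracheal bleomycin at 5 U/kg, at day 7 (n = 4), day 14 (n = 4) and day 21 (n = 3). Day 0 replicate 4 was titled ctrl while its treatment label named bleomycin, so the title decided its group and fits were also run without this library. No vehicle group of a later day was analysed here, so time since instillation and drug cannot be told apart. No label tied libraries to separate animals, so p-values measure the spread between these libraries.

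Smooth muscle shortens when smooth muscle myosin, whose heavy chain is encoded by Myh11, pulls on actin filaments made of Acta2 (smooth muscle alpha-actin) and Actg2 (smooth muscle gamma-actin). Myosin light chain kinase, from Mylk, switches the motor on, while Cnn1 (calponin), Tagln (transgelin) and Smtn (smoothelin) bind the filaments, Lmod1 (leiomodin) starts new ones, and Des (desmin) forms intermediate filaments that tie the apparatus to the cell. Much of this program is switched on by serum response factor with its coactivator myocardin, from Myocd. In a scarring lung, fibroblasts that turn into myofibroblasts take up Acta2 and become contractile, whereas airway and vessel walls hold smooth muscle from the start.

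Acta2 was 2.75-fold, 3.65-fold and 3.34-fold higher than day 0 at days 7, 14 and 21, and it was the only one of the 10 to pass the test at day 7. Actg2 and Smtn were also higher at day 14 (3.03-fold and 1.66-fold) and day 21 (2.79-fold and 1.75-fold), and Des and Myocd at day 21 (2.0-fold and 2.58-fold). Myh11, Cnn1, Lmod1, Mylk and Tagln did not pass the test at any day. Genes were called on 2 thresholds, a fold change above 1.5 and an adjusted p below 0.05 (edgeR quasi-likelihood test, Benjamini-Hochberg over 17457 genes). By this rule 1 of the 10 genes was higher at day 7, 3 at day 14 and 5 at day 21, against a background over all genes tested of 8.78%, 12.0% and 12.4% higher. The day 7 count was near that share. None was lower, against 7.36%, 11.2% and 10.1% of all genes tested. At an unadjusted p under 0.05 the counts were 2, 5 and 6 genes, all higher, beside 38.2%, 43.3% and 40.5% of all genes in either direction. DESeq2 called 1, 4 and 5, beside 18.3%, 24.3% and 24.2% in either direction. A test against the fold threshold itself (glmTreat) left Acta2 alone at each day, and leaving out a library gave 2 to 4 genes at day 21 in place of 5. The median log2 fold change of the 10 was 0.29, 0.70 and 0.88 at the 3 days, beside 0.01, 0.02 and 0.02 over all genes. Since these are whole lungs, a change in the number of cells of a type and a change in RNA per cell cannot be told apart.

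**Figure D1:**
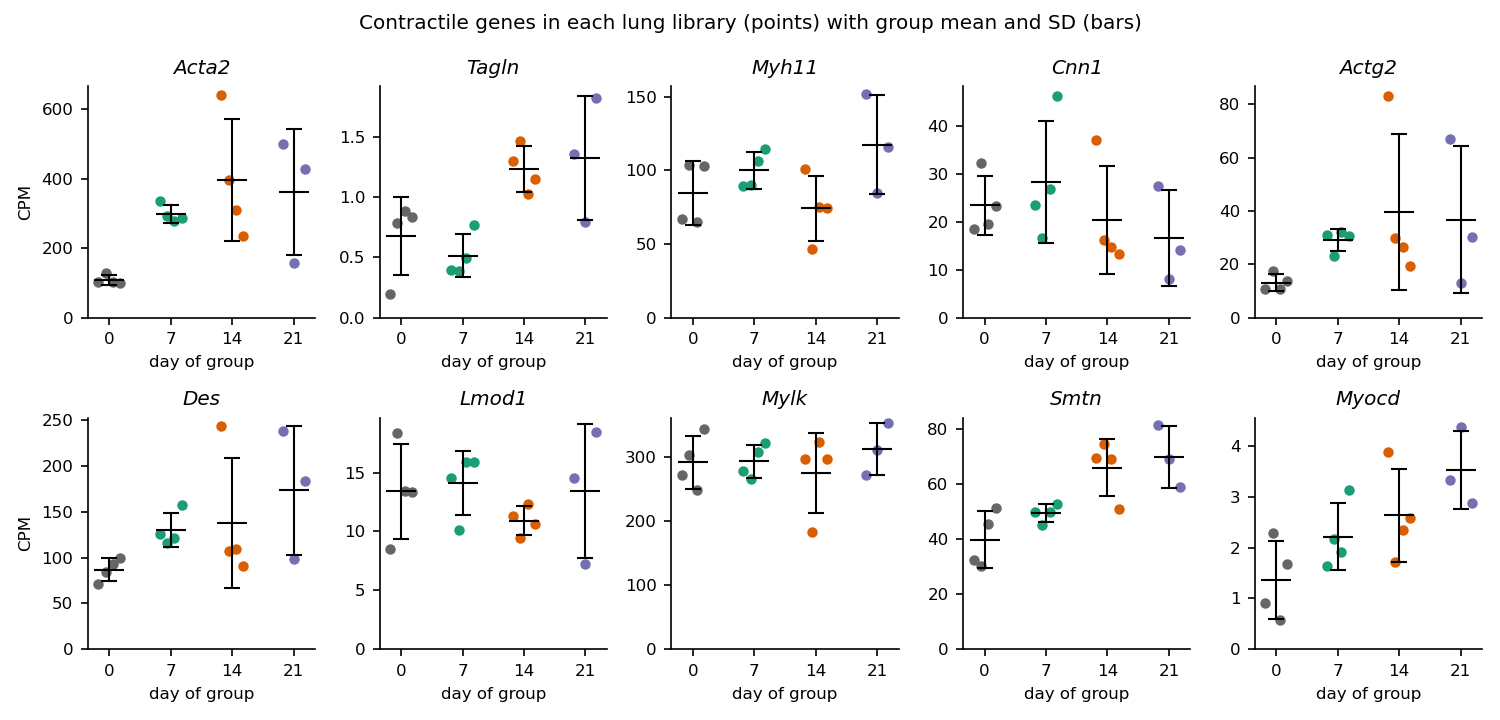
CPM (library-scaled counts, vertical axis, starting at 0 in each panel) of the 10 contractile genes in each library, by day group. Points are libraries and black bars the mean with SD. All Acta2 libraries of days 7, 14 and 21 lie above the 4 day 0 libraries, while the Mylk and Myh11 groups overlap.

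Total counts lay between 15652008 and 18020661 per library. The share of counts from mitochondrial genes ran from 2.03% to 2.15% at day 7 and from 2.102% to 4.22% in the other libraries, and the labels name no batch. Defining genes of lung (Sftpc, Sftpb, Scgb1a1, Ager and Pecam1) had counts in every group. Their sum lay between 49060 and 64180 CPM at day 0, 24700 and 33830 at day 7, 13220 and 25760 at day 14, and 9415 and 13730 at day 21, and the part of this shift in the contractile gene values was not tested. CPM here are counts over the library size after TMM scaling, and CPM per kilobase divides them by the exon length in the GENCODE M21 annotation (GRCm38).

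At day 0, on the CPM per kilobase scale that allows levels of different genes to be compared, Acta2 led with 49.4 ± 6.20 (SD, n = 4). Mylk at 25.9 ± 3.65 and Des at 23.1 ± 3.28 followed and did not differ beyond their spread. Myh11 (11.2 ± 2.83), Smtn (9.09 ± 2.34), Cnn1 (8.57 ± 2.28) and Actg2 (8.44 ± 2.11) formed a group whose neighbours lay within 1 SD of each other. Lmod1 stood at 3.39 ± 1.02, Tagln at 0.340 ± 0.163 and Myocd at 0.212 ± 0.121. The exons of Tagln overlap those of other genes, so its place here gives no level for transgelin, as said with its values.

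Acta2 (ENSMUSG00000035783, GRCm38 chr19:34241090-34255590, minus strand) encodes smooth muscle alpha-actin, the marker by which myofibroblasts are usually recognised. It stood at 102.7, 128.9, 101.7 and 100.6 CPM in the day 0 libraries. At day 7 the libraries read 336.8, 291.4, 277.9 and 287.3 CPM. At day 14 they read 639.8, 397.5, 311.1 and 234.3 CPM, and at day 21 500.9, 157.4 and 427.2 CPM. All 11 later libraries lay above all day 0 libraries. The 4 libraries of day 7 lay close together, whereas those of days 14 and 21 spread widely, with day 21 replicate 2 the lowest of the 11. Means were 108.5 ± 13.6, 298.4 ± 26.3, 395.7 ± 175.9 and 361.8 ± 180.8 CPM, in order of day. The log2 fold change against day 0 was 1.46 at day 7 (SE 0.31, adjusted p = 0.00404), 1.87 at day 14 (SE 0.32, adjusted p = 0.000418) and 1.74 at day 21 (SE 0.33, adjusted p = 0.00115). The call held in every fit that left out a library. Adding the mitochondrial share to the model as a covariate gave a day 7 estimate of 1.18 and an adjusted p of 0.0543.

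Of the 10 genes, 6 had a RefSeq promoter window of 300 bases, 250 of them before the start (GRCm38.p6): Acta2, Cnn1, Des, Lmod1, Mylk and Smtn. Tagln, Myh11, Actg2 and Myocd are named only. These windows were searched on both strands for the CArG box, the element that serum response factor binds, and for the same box with 1 G or C allowed in its 6-base A and T core. Of 32851 promoter windows, 1.63% held a CArG box and 9.98% held either form. Acta2 was the only one of the 6 genes with a match, and 1 of 6 is near the 9.98% over all windows. Its window held 2 boxes with 1 G or C in the core, at 84 and 34 bases before the start. They are shown because Acta2 led the response, beside the 2 CArG boxes in the promoter of Srf, the gene of serum response factor itself, at 82 and 62 bases before its start. Capitals mark the box and lower case the bases on either side:
Acta2 at 84 bases before the start (chr19:34255438-34255467, minus strand): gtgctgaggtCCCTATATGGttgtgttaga
Acta2 at 34 bases before the start (chr19:34255388-34255417, minus strand): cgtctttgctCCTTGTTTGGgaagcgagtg
Srf at 82 bases before the start (chr17:46556225-46556254, minus strand): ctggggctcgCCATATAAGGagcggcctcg
Srf at 62 bases before the start (chr17:46556205-46556234, minus strand): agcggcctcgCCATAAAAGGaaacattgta
A match says that these letters stand in the window, and no binding was measured here. Bases outside the 300-base windows were not searched, so a window without a match does not show that a gene lacks the box.

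Actg2 (ENSMUSG00000059430, chr6:83512905-83536265, minus strand) encodes the gamma-actin of enteric and other smooth muscle. It stood at 10.6, 17.6, 10.7 and 13.7 CPM at day 0. The day 7 libraries read 31.2, 23.1, 32.0 and 30.5 CPM. Those of day 14 read 83.2, 29.9, 26.6 and 19.5 CPM, and those of day 21 read 67.1, 12.9 and 30.3 CPM. All libraries of days 7 and 14 and 2 of 3 at day 21 lay above day 0, while day 21 replicate 2 fell within the day 0 range. The log2 fold change was 1.15 at day 7 (SE 0.46, adjusted p = 0.0759, past the threshold in 4 of 19 alternatives), 1.60 at day 14 (SE 0.46, adjusted p = 0.0144) and 1.48 at day 21 (SE 0.48, adjusted p = 0.0299). The alternatives that passed at day 7 were no filter (adjusted p = 0.0315), the cardiac covariate (0.0415), the 2 groups alone (0.00104) and the set of lower mitochondrial share (0.0127). That set held 2 libraries of day 0 and 4 of day 7. The day 14 call rested on replicate 1: without that library the estimate was 0.92 (adjusted p = 0.0809). The day 21 call was lost when any 1 of day 0 replicates 1, 3 or 4 or day 21 replicates 1 or 3 was left out, and the estimate without day 21 replicate 1 was 0.68 (adjusted p = 0.321). It was also lost with limma voom (1.19, adjusted p = 0.109) and with the replicate number as a block (1.14, adjusted p = 0.0740).

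The actins are paralogs, so reads could in principle be shared among them. The coding sequence of Acta2 has 1131 bases in GENCODE M21 and was 84.2% identical to that of Actg2, 85.4% to Acta1 (skeletal), 82.6% to Actc1 (cardiac), 82.8% to Actb and 81.5% to Actg1 (both cytoplasmic). None of its 1032 stretches of 100 bases occurred whole in any of the other 5. A stretch of 90 bases is shown for the smooth muscle actins, Acta2 and Actg2, with the 14 bases that differ in capitals:
Acta2, coding bases 61 to 150: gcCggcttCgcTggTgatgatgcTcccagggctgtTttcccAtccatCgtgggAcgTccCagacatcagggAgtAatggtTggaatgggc
Actg2, coding bases 58 to 147: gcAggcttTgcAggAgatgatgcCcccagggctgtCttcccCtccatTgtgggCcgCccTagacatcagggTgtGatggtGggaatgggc
The mean levels of both cytoplasmic actins were highest at day 7. The log2 estimate of Actb was 0.82 at day 7 (adjusted p = 0.00555), 0.64 at day 14 (adjusted p = 0.0152) and 0.31 at day 21 (adjusted p = 0.255), and the day 7 call was lost in 2 of 19 alternatives, the mitochondrial covariate and the set of lower mitochondrial share. The day 14 call was lost in 5 of 19, which were the cardiac covariate, the 2 groups alone, the set of higher mitochondrial share and the fits that left out day 0 replicate 3 or day 14 replicate 1. That of Actg1 was 0.89 at day 7 (adjusted p = 0.000233), 0.58 at day 14 (adjusted p = 0.00242, under the fold threshold) and 0.29 at day 21 (adjusted p = 0.118). Acta1, the skeletal actin, was called higher at day 7 and day 21 at no more than 4.28 CPM in any library, with 0 to 3 counts per library at day 0, and the day 7 call was lost in 3 of 16 alternatives, namely without replicate 4 of that day, with limma voom and with the mitochondrial covariate. The day 21 call of Acta1 was lost in 5 of 16 alternatives, each without 1 library (day 0 replicate 2, 3 or 4 or day 21 replicate 1 or 3). Actc1, the cardiac actin, did not pass the test at any day.

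Smtn (ENSMUSG00000020439, chr11:3517523-3540612, minus strand) encodes smoothelin, an actin-binding protein of contractile smooth muscle. It stood at 32.3, 30.2, 45.3 and 51.4 CPM at day 0 and at 49.7, 45.0, 49.8 and 52.9 CPM at day 7. The day 14 libraries read 69.3, 74.4, 69.1 and 50.9 CPM, and the day 21 libraries read 81.6, 68.9 and 59.0 CPM. At day 14, 3 of 4 libraries lay above every day 0 library, and at day 21 all 3 did, while day 7 overlapped day 0. Against day 0 the log2 fold change was 0.31 at day 7 (adjusted p = 0.187), 0.73 at day 14 (SE 0.17, adjusted p = 0.00376) and 0.81 at day 21 (SE 0.18, adjusted p = 0.0032). Both calls held in every fit that left out a library. Day 0 replicates 3 and 4, the higher for Smtn, also had the higher mitochondrial share (4.22% and 4.05%). Within the libraries under 2.5% (2 of day 0 and 4 of day 7) the day 7 estimate was 0.64 (adjusted p = 0.00465). Within those over 3.5% (2 of day 0 and 3 of day 14) the day 14 estimate was 0.41 (adjusted p = 0.162).

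Des (ENSMUSG00000026208, chr1:75360329-75368579, plus strand) encodes desmin, the muscle intermediate filament, which cardiac muscle and pericytes also make. It stood at 71.2, 83.7, 92.7 and 99.7 CPM at day 0 and at 125.6, 115.9, 121.2 and 157.4 CPM at day 7. The day 14 libraries read 243.6, 106.7, 109.8 and 90.3 CPM, and the day 21 libraries read 238.5, 98.8 and 183.7 CPM. All day 7 libraries lay above day 0, yet 1 library of day 14 (replicate 4) and 1 of day 21 (replicate 2) fell within its range. On the log2 scale the fold change was 0.58 at day 7 (adjusted p = 0.151), 0.66 at day 14 (adjusted p = 0.0896) and 1.0 at day 21 (SE 0.31, adjusted p = 0.0232). Within the libraries of lower mitochondrial share, 2 of day 0 and 4 of day 7, the day 7 estimate was 0.73 (adjusted p = 0.00986). The day 21 call was lost without day 0 replicate 1 or 2 or without day 21 replicate 1 or 3, with estimates between 0.67 and 0.94.

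Cardiac muscle RNA varied between libraries. Summed over 9 cardiac genes it ran from 13.5 to 230.1 CPM at day 0, 13.5 to 562.4 at day 7, 14.4 to 33.0 at day 14 and 14.2 to 665.4 at day 21. The high libraries were day 0 replicates 3 and 4, day 7 replicate 4 and day 21 replicate 1, which were also the libraries of highest Des at days 0, 7 and 21. At day 14, where Des was highest in replicate 1, that library had the highest cardiac sum of its day, 33.0 CPM, of which Tnnt2 alone gave 23.3 CPM. Myh6, the atrial and adult mouse ventricular myosin, stood at 0 to 0.114 CPM in day 14 libraries and reached 320.5 CPM at day 21, and Sln had no count at day 14. The Des estimate at day 14, 0.66, was 0.85 with the cardiac level as a covariate (adjusted p = 0.0182) and 0.82 without day 14 replicate 4 (adjusted p = 0.0445), both past the threshold. It was 0.21 without day 14 replicate 1 and 0.08 within the libraries of higher mitochondrial share. That set also leaves out day 14 replicate 1, whose mitochondrial share was 2.102%, so the 2 values are not separate checks. The day 21 call held with the cardiac covariate. Skeletal muscle genes summed to between 2.23 and 13.4 CPM over all libraries, and Myh4 had no count at days 0 and 21.

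Myocd (ENSMUSG00000020542, chr11:65176561-65269989, minus strand) encodes myocardin, the coactivator of the smooth muscle and cardiac program. It was scarce, with 9 to 77 counts per library. It stood at 0.905, 2.30, 0.571 and 1.67 CPM at day 0 and at 1.64, 2.17, 1.92 and 3.15 CPM at day 7. The day 14 libraries read 3.90, 1.72, 2.34 and 2.59 CPM, and the day 21 libraries read 3.33, 4.38 and 2.88 CPM. All 3 libraries of day 21 lay above all day 0 libraries, and days 7 and 14 overlapped day 0. Its log2 fold change was 0.70 at day 7 (adjusted p = 0.198), 0.95 at day 14 (adjusted p = 0.0700) and 1.37 at day 21 (SE 0.40, adjusted p = 0.0190). The day 14 estimate passed in 3 of 19 alternatives. These were DESeq2 (adjusted p = 0.0483), the mitochondrial covariate (0.0445) and the fit without day 0 replicate 2 (0.0254). The day 21 call was lost without day 0 replicate 1 or 3 or without day 21 replicate 2, with estimates between 1.08 and 1.18, and with the 2 groups fitted alone (1.33, adjusted p = 0.0507).

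**Figure D2:**
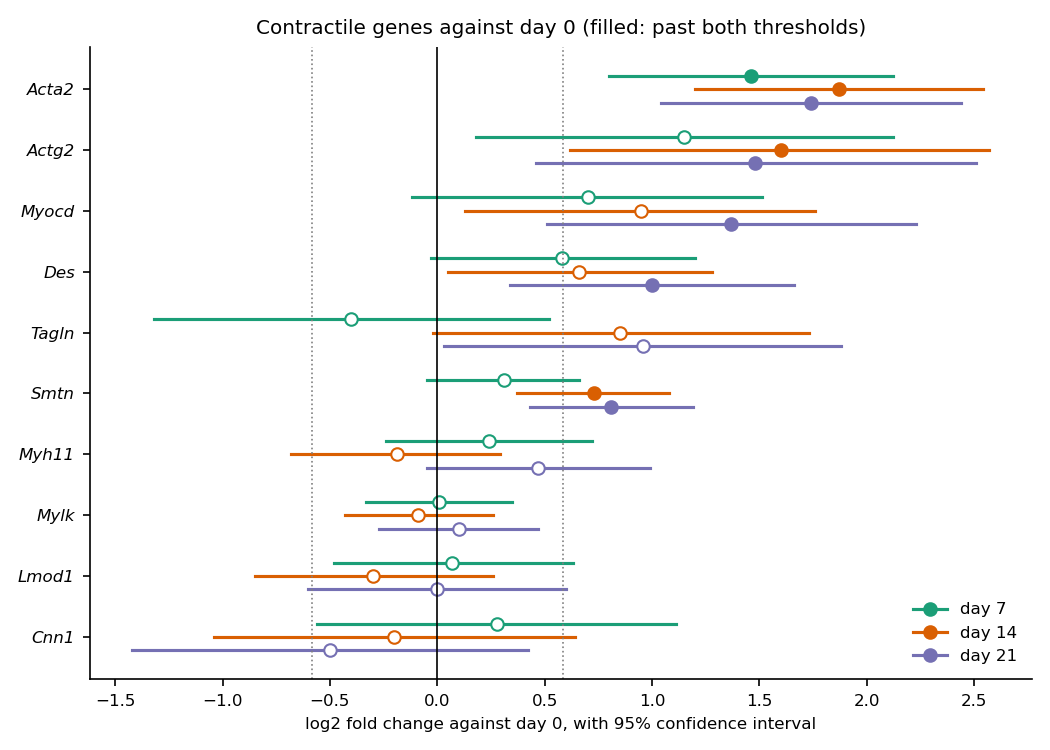
Log2 fold change against day 0 (horizontal axis) of each contractile gene at days 7, 14 and 21, from edgeR, with 95% confidence intervals. Filled points passed both thresholds (dotted lines mark a fold change of 1.5), which Acta2 did at all 3 days and Myh11, Mylk, Lmod1, Cnn1 and Tagln at none.

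Myh11 (ENSMUSG00000018830, chr16:14194535-14291372, minus strand) encodes the myosin heavy chain most restricted to mature smooth muscle. It stood at 67.0, 103.8, 65.3 and 102.9 CPM at day 0 and at 89.6, 89.9, 106.4 and 114.9 CPM at day 7. The day 14 libraries read 100.8, 46.4, 75.5 and 74.2 CPM, and the day 21 libraries read 152.1, 84.6 and 116.0 CPM. Each later group overlapped day 0. The log2 fold change was 0.24 at day 7 (95% interval -0.24 to 0.72), -0.19 at day 14 (-0.68 to 0.29) and 0.47 at day 21 (-0.05 to 0.99), with adjusted p = 0.466, 0.551 and 0.161. The upper bounds lay under the Acta2 estimates of the same days.

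Mylk (ENSMUSG00000022836, chr16:34745210-35002420, plus strand), whose kinase starts contraction and is also made in endothelium, had the estimate nearest to 0 at days 7 and 14. At day 21 that of Lmod1 was nearer to 0 (a 1.001-fold difference). Mylk ranged from 248.4 to 343.4 CPM at day 0, 265.4 to 321.7 at day 7, 182.4 to 323.1 at day 14 and 272.6 to 353.2 at day 21. The 3 estimates lay between -0.09 and 0.10 on the log2 scale, and the widest 95% bounds were -0.43 and 0.47. An increase or decrease of Mylk beyond the fold threshold was thus outside the interval at each day.

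Lmod1 (ENSMUSG00000048096, chr1:135324807-135368065, plus strand), the actin nucleator, ranged from 8.47 to 18.4 CPM at day 0 and from 7.23 to 18.5 CPM in the later libraries. Its log2 fold change was 0.07 at day 7 (95% interval -0.48 to 0.63) and -0.30 at day 14 (-0.85 to 0.26), and at day 21 the interval ran from -0.60 to 0.60. Cnn1 (ENSMUSG00000001349, chr9:22099216-22109630, plus strand), calponin, stood at 18.6, 32.3, 19.7 and 23.3 CPM at day 0. At day 7 it read 23.6, 16.7, 26.9 and 46.5 CPM, at day 14 37.2, 16.3, 14.7 and 13.3 CPM, and at day 21 27.6, 8.08 and 14.2 CPM. At day 14, 3 libraries lay under the day 0 range and 1 above it, and at day 21 2 lay under it and 1 within. Its log2 fold change was 0.28 at day 7 (95% interval -0.56 to 1.11), -0.20 at day 14 (-1.04 to 0.64) and -0.50 at day 21 (-1.42 to 0.42). The day 21 estimate ran from -1.11, without day 21 replicate 1, to -0.21, without day 21 replicate 2.

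Tagln (ENSMUSG00000032085, chr9:45929619-45936058, minus strand) encodes transgelin, usually one of the most abundant smooth muscle messages. Here it had 3 to 31 counts per library. It stood at 0.194, 0.785, 0.888 and 0.836 CPM at day 0 and at 0.396, 0.390, 0.494 and 0.772 CPM at day 7. The day 14 libraries read 1.30, 1.47, 1.03 and 1.15 CPM, and the day 21 libraries read 1.36, 0.797 and 1.82 CPM. All day 14 libraries and 2 of 3 at day 21 lay above day 0. The log2 fold change was -0.40 at day 7 (95% interval -1.32 to 0.52), 0.85 at day 14 (-0.02 to 1.73) and 0.96 at day 21 (0.03 to 1.88), with adjusted p = 0.527, 0.123 and 0.111. In GENCODE M21 its main transcript has 1595 exon bases, of which 985 (61.8%) are also exon of another gene, and all 603 coding bases are among them. The antisense gene Gm48529 shares 1241 of the 1988 exon bases of the whole gene and had 8 to 51 counts, and Pcsk7 shares 108. Reads that lie on exons of more than 1 gene are left out by HTSeq's default unless strand tells the genes apart, and the strand setting was not given in the sources used here. The part of this overlap in the low Tagln count was not tested, and these counts give no level for transgelin. Smtn also overlaps an antisense gene, Gm11946, over 714 of 4380 exon bases, and that gene had 0 to 12 counts.

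To set actin against smooth muscle myosin in the same lung, the log2 ratio of Acta2 to Myh11 was taken in each library. It was 0.62, 0.31, 0.64 and -0.03 at day 0. At day 7 it was 1.91, 1.70, 1.38 and 1.32, at day 14 2.67, 3.10, 2.04 and 1.66, and at day 21 1.72, 0.90 and 1.88. Every later library lay above every day 0 library. The ratio was higher than at day 0 by 1.19 at day 7, 1.98 at day 14 and 1.11 at day 21 on the log2 scale. The exact two-sided permutation p was 0.0286 for each, the smallest that these group sizes allow, and 0.0571 after Benjamini-Hochberg adjustment over the 6 ratio tests, so none passed the correction. For Tagln to Myh11 the differences were -0.50, 1.10 and 0.47, with exact permutation p = 0.314, 0.0857 and 0.314 (adjusted 0.314, 0.129 and 0.314), on the sparse Tagln counts.

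**Figure D3:**
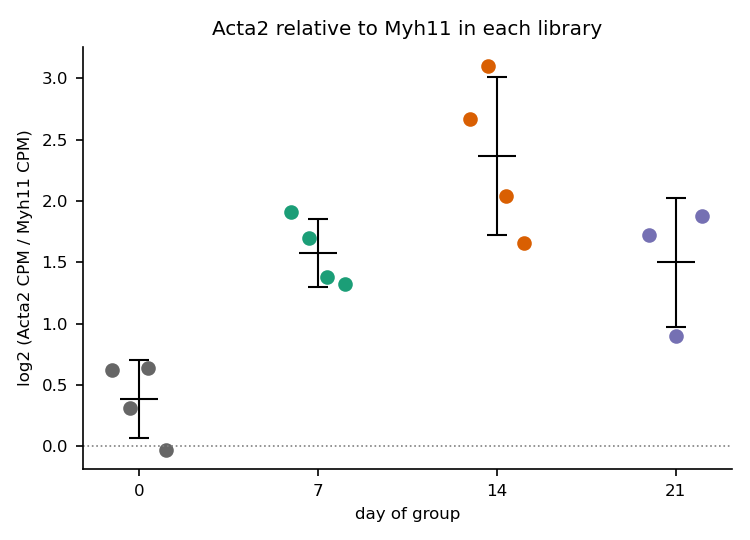
Log2 ratio of Acta2 to Myh11 CPM (vertical axis) in each library by day group, with mean and SD in black. The day 0 libraries lie between -0.03 and 0.64 and the lowest later library, at day 21, at 0.90.

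No contractile gene differed between later days by the same rule: 0 of 10 for day 14 against day 7 (6.00% of all genes tested, in either direction), 0 for day 21 against day 7 (9.54%) and 0 for day 21 against day 14 (0.00%). At an unadjusted p under 0.05 the counts were 2, 2 and 1, beside 25.0%, 30.0% and 9.82% of all genes. DESeq2 called 1 gene in each of the first 2 comparisons, Tagln, and 0 in the last, beside 9.38%, 12.8% and 0.607% of all genes. These comparisons share libraries with those against day 0.

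The same libraries tended to be highest for several of the genes. Leaving Tagln aside, day 0 replicate 2 was highest of its day for 6 of 9 genes, day 7 replicate 4 for 7, day 14 replicate 1 for 6 and day 21 replicate 1 for 6. Day 7 replicate 2 and day 21 replicate 2 were each lowest for 6 of 9, and day 14 replicate 4 for 5.

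Over the 15 libraries, the genes whose log2 CPM followed Acta2 most closely among 12246 with a mean of at least 5 CPM were Tpm2 (Pearson r = 0.970), Gusb (0.963), Basp1 (0.961), Hif1a (0.958) and Cercam (0.958). Of the contractile genes, Actg2 ranked 65 (r = 0.929), Des 781 (0.825), Smtn 2045 (0.675), Myh11 4697 (0.278), Cnn1 5259 (0.187), Lmod1 5400 (0.163) and Mylk 6898 (-0.0983). The genes closest to Myh11 were Nwd1 (0.879), Susd2 (0.868), Adamts15 (0.867), Atp2b4 (0.848) and Cp (0.833), with Mylk at rank 125 (0.667), Des at 195 (0.631), Lmod1 at 274 (0.596), Actg2 at 824 (0.467), Cnn1 at 833 (0.466), Acta2 at 2332 (0.278) and Smtn at 4608 (0.0916). These values describe likeness over libraries that share the 4 day groups and carry no test.

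A list of 30 further genes covered the contractile apparatus and its anchorage. At day 7, 6 were higher and 2 lower, at day 14 10 and 5, and at day 21 8 and 5, with medians of 0.27, 0.21 and 0.14 on the log2 scale. Over all genes tested 8.78% were higher and 7.36% lower at day 7, 12.0% and 11.2% at day 14, and 12.4% and 10.1% at day 21, so the day 7 count of lower genes was near the share over all genes. Over the alternatives the count of higher list genes ran from 0 to 11 at day 7, 5 to 11 at day 14 and 6 to 10 at day 21, and that of lower ones from 0 to 3, 4 to 6 and 3 to 5. Tpm2, a tropomyosin that lies along actin filaments, rose from 34.99 ± 4.95 CPM at day 0 to 87.3 ± 38.2 at day 14 (log2 fold change 1.32, SE 0.30, adjusted p = 0.0036). Pdlim7, a scaffold of actin bundles, rose from 42.4 ± 3.94 to 97.0 ± 18.8 CPM at day 14 (1.20, SE 0.14, adjusted p = 1.45e-05). Synm (synemin), an intermediate filament protein that pairs with desmin, stood at 111.4, 123.4, 85.4 and 99.5 CPM at day 0 and at 42.8, 33.8, 66.4 and 49.3 at day 7. At day 14 it read 26.2, 26.0, 45.0 and 42.9 CPM, and at day 21 23.2, 31.0 and 41.4 CPM. All 11 later libraries lay under all day 0 libraries, and the log2 fold change was -1.13 (adjusted p = 0.00338), -1.58 (adjusted p = 0.000159) and -1.72 (adjusted p = 0.000236). Synm fell while the desmin estimates were positive. Itga8, an integrin chain of mesenchymal cells, fell on the log2 scale by 1.49 at day 14 (adjusted p = 0.0005) and by 1.60 at day 21 (adjusted p = 0.000737). Ppp1r14a, which encodes an inhibitor of myosin phosphatase, fell on the log2 scale by 1.11 at day 14 (adjusted p = 0.000122) and by 1.0 at day 21 (adjusted p = 0.000698). The Synm, Itga8, Pdlim7 and Ppp1r14a calls held in all of 19 alternatives at day 14 and 17 at day 21. These counts leave out glmTreat and the fit with no fold threshold.

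**Figure D4:**
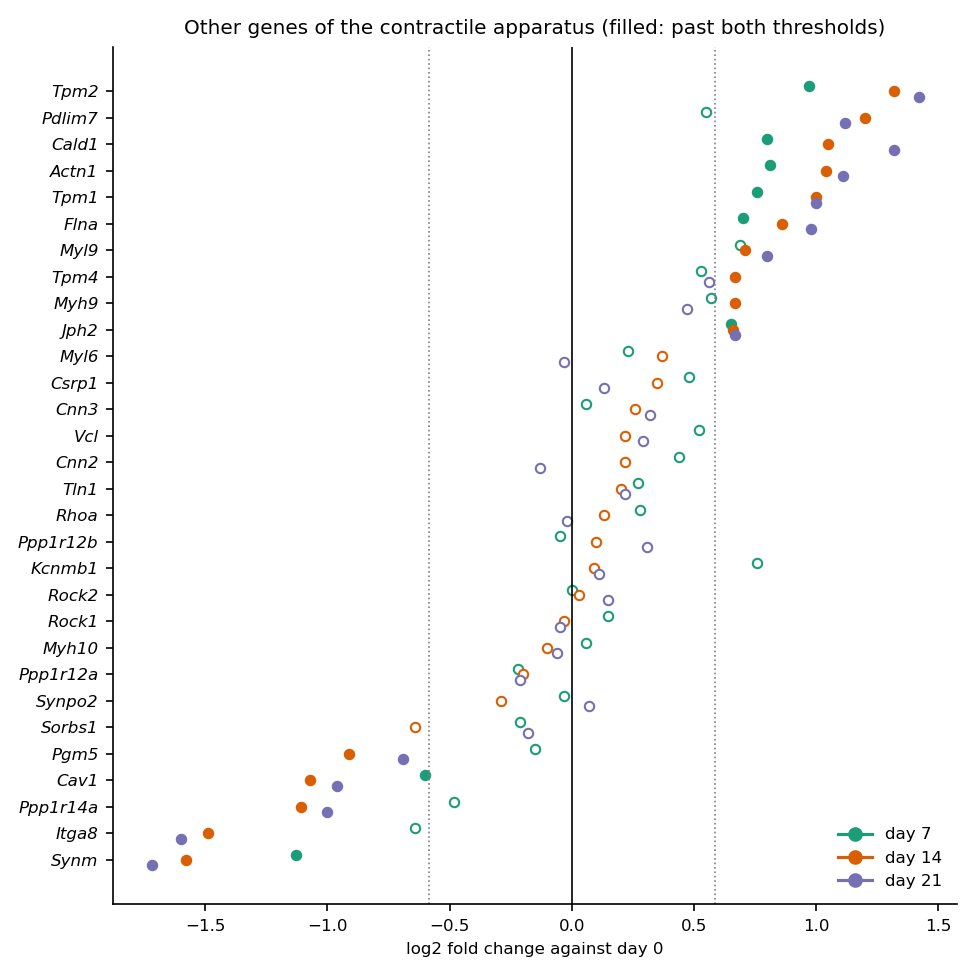
Log2 fold change against day 0 (horizontal axis) of 30 further contractile apparatus genes at days 7, 14 and 21, ordered by the day 14 value. Filled points passed both thresholds (dotted lines mark the fold change of 1.5). At day 14, 10 genes led by Tpm2 lie on the right and 5 ending with Synm on the left.

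Of 13 regulators of the program, 1 was higher and 3 were lower at day 7, 1 and 2 at day 14, and 2 and 3 at day 21. The counts of higher regulators, and that of lower ones at day 14, lie near the shares over all genes given beside the contractile apparatus list. Srf, serum response factor, stood at 68.0 ± 11.4 CPM at day 0 and its estimates were 0.08, 0.07 and -0.03, with 95% bounds from -0.31 to 0.34 over the 3 days. Its coactivator Mrtfa rose from 42.7 ± 1.11 CPM at day 0 to 52.2 ± 1.77 at day 14 (log2 fold change 0.29, adjusted p = 0.0143) and 53.9 ± 5.44 at day 21 (0.34, adjusted p = 0.0105), under the fold threshold. The paralog Mrtfb was higher at day 21 (90.2 ± 9.48 against 56.0 ± 13.3 CPM, log2 fold change 0.69, adjusted p = 0.00489), a call lost without day 0 replicate 3 or without day 21 replicate 1. Prrx1, a homeodomain factor of mesenchyme, rose at the 3 days by 1.04, 1.31 and 1.70 on the log2 scale (adjusted p = 0.00968, 0.0014 and 0.000345). Its day 7 call was lost with the mitochondrial covariate. The falls that follow are given on the same scale. Foxo4, a forkhead factor that restrains myocardin, fell by 0.97, 1.03 and 0.85 (adjusted p = 9.19e-05, 2.06e-05 and 0.000286), and every later library lay under every day 0 library. Foxf1, a forkhead factor of lung mesenchyme and endothelium, fell by 0.74, 0.89 and 0.79 (adjusted p = 0.0329, 0.00952 and 0.0312), and the calls at days 7 and 21 were each lost in 6 alternatives. At day 7 these were the mitochondrial covariate, the set of lower mitochondrial share and the fits that left out day 0 replicate 3 or 4 or day 7 replicate 1 or 2. At day 21 they were the replicate block, the 2 groups alone and the fits that left out day 0 replicate 3 or 4 or day 21 replicate 1 or 3. Klf5, a zinc finger factor of activated smooth muscle, fell by 0.78 at day 21 (adjusted p = 0.0124), a call lost without day 21 replicate 3. Carmn, a long noncoding RNA of smooth muscle at 9 to 129 counts, fell by 1.52 at day 7 (adjusted p = 0.0465), a call lost in 10 of 19 alternatives, the replicate block and leaving out any day 7 library or day 0 replicate 4 among them. Klf4, which opposes the smooth muscle program, had estimates of -0.88, -0.64 and -0.56 (adjusted p = 0.0675, 0.16 and 0.271), and Elk1, Elk4, Gata6 and Tead1 did not pass the test at any day.

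Markers of neighbouring cells were counted by the same rule, and their counts are to be read beside the shares over all genes given for the contractile apparatus list. Of 8 genes of matrix-producing fibroblasts, 4 were higher at day 7 and 7 at days 14 and 21, and none was lower. Their summed level rose from 1046 to 1454 CPM at day 0 to 3768 to 4832 at day 7, 2845 to 9990 at day 14 and 3688 to 7185 at day 21. Col1a1, a collagen chain, stood at 312.9 ± 74.7 CPM at day 0, and at day 14 its libraries ran from 989.7 to 5079 CPM. Of the 4 genes higher at day 7, Lrrc15 lost its call in 9 of 18 alternatives, among them without day 0 replicate 2, 3 or 4. Of 8 pericyte genes, 1 was higher and 1 lower at day 7, 2 and 2 at day 14, and 3 and 1 at day 21, and 1 of 8 in either direction at day 7 and 1 of 8 lower at day 21 are near those shares. Their summed level was 260.7 to 306.0 CPM at day 0 and 412.2 to 652.3 at day 21. Rgs5, a pericyte and smooth muscle regulator of G protein signals, stood at 7.50, 7.85, 9.83 and 14.0 CPM at day 0. At day 7 it read 8.77, 10.7, 8.67 and 6.65 CPM, at day 14 20.7, 13.6, 18.9 and 15.6 CPM, and at day 21 118.3, 39.7 and 50.4 CPM. The day 14 log2 fold change was 0.81 (SE 0.30, adjusted p = 0.0491), a call lost in 13 of 19 alternatives, among them without any 1 of the day 14 libraries or day 0 replicate 1, 2 or 3. All 3 day 21 libraries lay above all others, with a log2 fold change of 2.82 against day 0 (SE 0.32, adjusted p = 2.08e-05). Cspg4, the NG2 proteoglycan of pericytes, rose on the log2 scale by 0.85 at day 7 (adjusted p = 0.0478), 1.23 at day 14 (adjusted p = 0.00543) and 1.79 at day 21 (adjusted p = 0.000676). The day 7 call was lost in 12 of 19 alternatives, among them without any 1 library of day 0 or day 7. The falls of Abcc9, Cox4i2 and Higd1b are given on the same scale. Abcc9, a potassium channel subunit, fell by 1.19 at day 14 (adjusted p = 0.00119). Cox4i2, a respiratory chain subunit, fell by 0.67 at day 14 and 0.66 at day 21 (adjusted p = 0.0247 and 0.0431), calls lost in 4 of 19 and 9 of 17 alternatives, among them without day 0 replicate 1 or 3. Higd1b fell by 0.84 at day 7 (adjusted p = 0.0199), a call lost in 5 of 19 alternatives, among them without day 0 replicate 4 or day 7 replicate 1 or 2. Of 4 genes of airway smooth muscle and ductal myofibroblasts, none passed at days 7 and 14, and at day 21 Aspn was higher (log2 fold change 1.03, adjusted p = 0.0136) and Hhip lower (-1.29, adjusted p = 0.0267). Both calls were lost without day 21 replicate 1, and that of Hhip also without day 0 replicate 4 or day 21 replicate 3. Of 4 mesothelial genes 1 was higher at each day, and of the 5 lung genes 1, 4 and 3 were lower. The day 14 calls of Sftpc, Sftpb and Pecam1 were lost in 8, 3 and 3 of 19 alternatives. Each was lost within the set of higher mitochondrial share and without day 14 replicate 1. The part of the cell types above in the contractile gene values was not tested.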

How the data were processed

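Polyadenylated RNA of whole mouse lungs gave 15 libraries (NEBNext Ultra kit), sequenced from both ends. The authors trimmed reads with TrimGalore, aligned them to mm10 (GRCm38) with HISAT2 2.1.0, left out multi-mapped reads and deposited raw counts per Ensembl gene from HTSeq 0.6.0. The submitters' processing notes also name DESeq2 1.40.2. The annotation release and strand setting are not given in the sources used here. Symbols and exon lengths came from GENCODE M21, which matched 33267 of 33340 identifiers, and 450 genes had no count. Groups and replicate numbers came from the titles, while the series description gives 3 replicates per time point.

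The contractile genes and the lists of related genes were chosen with earlier results of these data known. The counts were fitted in edgeR 4.0.16 (R 4.3.3) with filterByExpr, TMM factors, glmQLFit and glmQLFTest, with a term for day alone, over all 15 libraries together. The common biological coefficient of variation was 22.8%. Thresholds were those of the study. SEs were derived from the quasi-likelihood F, and 95% intervals from its degrees of freedom. Log2 ratios used a prior count of 2. The fit was tested on simulated counts. Named from the lists were at most 5 genes of each, those with the largest day 14 change among genes changed at any day, and every regulator and actin.

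Alternatives were DESeq2 1.42.0, RLE factors, total count scaling, a filter at a mean of 1 CPM or none, replicate block, limma 3.58.1 voom, no fold threshold, glmTreat, mitochondrial share or cardiac level as covariate, the 2 groups alone, sets under 2.5% or over 3.5% mitochondrial counts, and leaving out each library. For the list genes and counts they were added after seeing the data. The set under 2.5% held 2 libraries of day 0 and 4 of day 7. The set over 3.5% held 2 of day 0 and 3 of day 14. Counts of alternatives given for a single gene leave out glmTreat and the fit with no fold threshold. Same-numbered libraries had correlations of their deviations from -0.244 to 0.397, with 8 of 21 pairs over 0.1. Libraries of unlike number were not compared, so these values cannot decide whether numbers pair libraries. The main fit did not pair them, and the replicate block was run as an alternative.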

Additional observations from a re-analysis of the deposited data

Results flagged for a closer look

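Of 36 groups of 4 libraries (the CPM of 10 genes or 1 of the 2 ratios, at days 0, 7 and 14), 6 held a library far from the others by Dixon's 95% limit, where chance flags about 5% of groups. In 3 of them the library was day 14 replicate 1, the highest of its day. It stood at 243.6 CPM for Des (others 90.3 to 109.8), 83.2 CPM for Actg2 (others 19.5 to 29.9) and 37.2 CPM for Cnn1 (others 13.3 to 16.3). Acta2 stood at 128.9 CPM in day 0 replicate 2, with the others between 100.6 and 102.7. Tagln stood at 0.194 CPM in day 0 replicate 1, on 3 counts, with the others between 0.785 and 0.888. The log2 ratio of Tagln to Myh11 was -7.01 in day 7 replicate 4, with the others between -7.47 and -7.44.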

How the results depend on the processing

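At day 7, 1 contractile gene was changed in the main fit. With the mitochondrial share as covariate 0 were called, and 2 each with no filter, the cardiac covariate or the 2 groups alone. Within the libraries of lower mitochondrial share, 2 of day 0 and 4 of day 7, 4 genes were called. At days 14 and 21, glmTreat left 1 gene each in place of 3 and 5, Acta2, and leaving out a library gave 2 to 4 at day 21. For day 14 against day 7, DESeq2, the cardiac covariate and the 2 groups alone each called 1 gene in place of 0, and for day 21 against day 7 DESeq2 and the cardiac covariate called 1. With the replicate block the counts were 1, 3 and 4 at the 3 days and 0 between later days; the block lost Actg2 at day 21 (log2 fold change 1.14) and no other call of the 10 genes, and of the list genes named it lost Foxf1 and Cox4i2 at day 21, Rgs5 at day 14 and Carmn at day 7. Some estimates that had not passed the test changed sign. Against day 0 these were Mylk at day 7 (-0.02 with DESeq2, RLE factors or 2 groups alone, -0.01 with no filter, -0.03 at a mean of 1 CPM, -0.05 with the mitochondrial covariate), Lmod1 at day 21 (0.00 with total count scaling or either covariate), Cnn1 at day 7 (-0.02, mitochondrial covariate) and day 14 (0.03, cardiac covariate), and Tagln at day 7 (0.03 within lower mitochondrial share). Between later days they were Des for day 14 against day 7 (-0.03, voom) and, for day 21 against day 14, Actg2 (0.06, mitochondrial covariate), Smtn (-0.04) and Tagln (-0.08, both cardiac covariate). When a library was left out, estimates spanned 0 against day 0 for Mylk (-0.09 to 0.07, -0.18 to 0.05 and -0.04 to 0.15 at days 7, 14 and 21), Lmod1 (-0.12 to 0.24 at day 7 and -0.35 to 0.26 at day 21) and Cnn1 (-0.07 to 0.46 at day 7). For day 14 against day 7 they did so for Des (-0.34 to 0.24), Actg2 (-0.20 to 0.67) and Mylk (-0.18 to 0.06). For day 21 against day 7 they did so for Myh11 (-0.02 to 0.40), Acta2 (-0.05 to 0.61), Actg2 (-0.45 to 0.71), Lmod1 (-0.41 to 0.20) and Mylk (-0.04 to 0.16). For day 21 against day 14 they did so for Cnn1 (-0.89 to 0.15), Acta2 (-0.45 to 0.21), Actg2 (-0.90 to 0.52), Smtn (-0.05 to 0.17), Tagln (-0.22 to 0.35) and Lmod1 (-0.03 to 0.58). The ratio of Acta2 to Myh11 at day 21 stayed above day 0 by 0.92 to 1.42, with groups then too small to pass. The ratio of Tagln to Myh11 ranged from -0.80 to -0.23 at day 7 and from 0.80 to 1.38 at day 14. The 1 CPM filter dropped Tagln. The contractile apparatus list had 0 to 11 genes higher at day 7, 5 to 11 at day 14 and 6 to 10 at day 21 over the alternatives, and 0 to 3, 4 to 6 and 3 to 5 lower. The cause of these changes was not tested.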
